A study of Xenopus laevis with 11 samples.

Results

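The neural plate of Xenopus laevis embryos at stage 12 was compared with animal cap explants grown to stage 14, and the comparison took in 3 of the 11 arrays of the series and 15491 of its 15611 probe sets, the other 120 being array controls. The members were chosen by the sample titles and by no measured value: 2 arrays labelled neural plate, stage 12, and 1 array labelled animal cap, stage 14. The animal cap is the ectoderm at the pole of the embryo opposite the yolk, and a cap explant left without inducing signals becomes epidermis, as which the labels describe it. All embryos came from the same growth conditions at 15 °C, and no allele or agent is named in the labels for either tissue. The titles number the arrays as biological replicates, but separate clutches are nowhere stated. A p-value here thus speaks for the spread within groups, pooled over all 11 arrays of the series, part of which could be technical. Stage and tissue differed together, and their parts in any difference cannot be told apart. The neural border at stage 14 (3 arrays) is given beside some genes, since it shares the stage of the cap, and the series also holds the neural border at stage 18 (2 arrays) and the anterior neural fold at stage 18 (3 arrays).

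In the frog gastrula the ectoderm is divided between epidermis and nervous system largely by bone morphogenetic protein (BMP) signalling. Cells that receive BMP signals turn on epidermal regulators and, later, keratins, while cells near the dorsal organizer receive secreted BMP antagonists and, with fibroblast growth factor (FGF) signals, form the neural plate. Neural plate cells express transcription factors of the SoxB1 and Zic families, go on dividing, and are given head or trunk character by Wnt, FGF and retinoic acid signals. Xenopus laevis is allotetraploid, so that many genes have a copy on a long (.L) and a copy on a short (.S) chromosome.

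The values were log2 intensities, on which a difference of 1 is a 2-fold difference, and each is compared between arrays for the same probe set only. Control probe sets for artificial tags, which match nothing in the frog, had a 95th percentile of 3.72, and a level below it is called within background here. The array medians were 5.01 and 4.98 in the neural plate and 4.95 in the cap. Over all tested probe sets the plate arrays correlated with each other at a Pearson r of 0.990 and with the cap array at 0.891 and 0.901. The median absolute difference was 0.17 between the plate arrays and 0.40 and 0.36 between each of them and the cap, and 89 probe sets differed 2-fold or more between the plate arrays against 3151 and 2847 between a plate array and the cap.

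The 2 tissues differed at 31.3% of the probe sets, or 4848, by limma at an adjusted p under 0.05. Of these, 2584 (16.7%) were higher in the neural plate and 2264 (14.6%) were lower. Differences of 2-fold or more were called for 2820 probe sets (18.2%), 1499 higher and 1321 lower, and 39 were at least 16-fold higher and 55 at least 16-fold lower. The median log2 difference over all probe sets was -0.03. In every called probe set both plate arrays lay on the same side of the cap array. Among probe sets called 2-fold or more, the cap was within background in 180 of the higher ones, and both plate arrays were within background in 221 of the lower ones, while 3741 of all probe sets were within background in both tissues. The cap group has a single array and no spread of its own, so each test takes the cap to vary as the other tissues do.

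**Figure D1:**
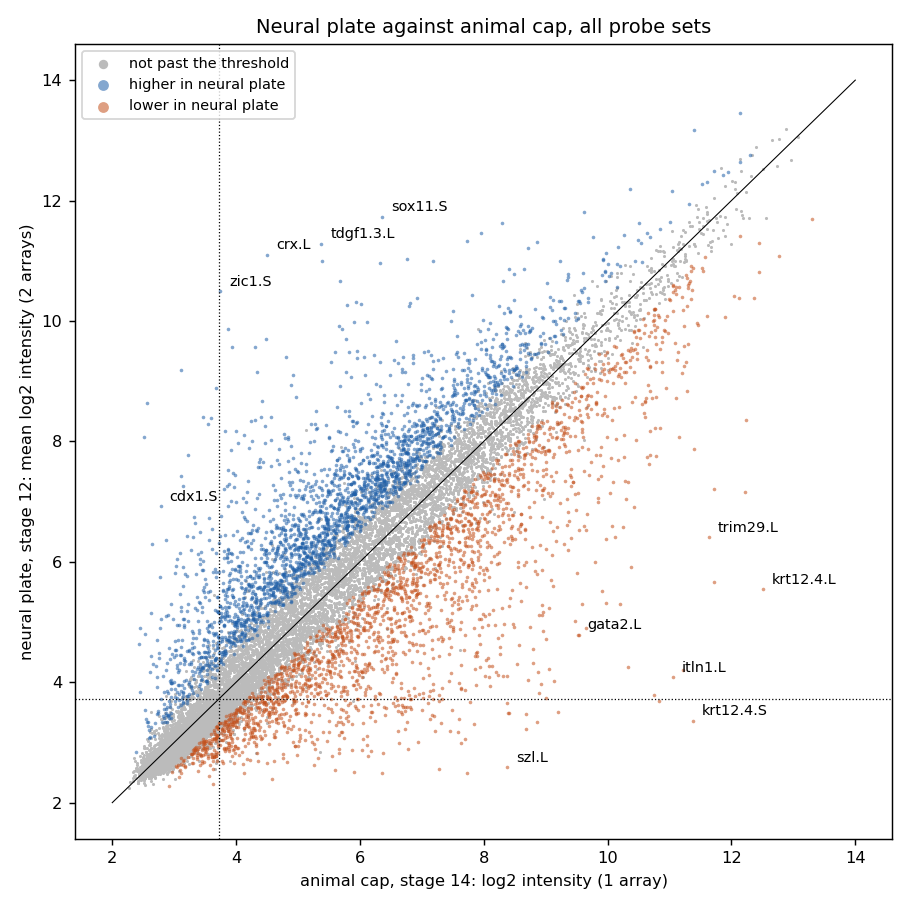
Mean log2 intensity of the 2 neural plate arrays (vertical axis) against the log2 intensity of the animal cap array (horizontal axis) for the 15491 probe sets, coloured by the test, with dotted lines at the background level of 3.72 and a solid line at equality. Genes such as zic1.S and crx.L lie far above the line, and krt12.4.S, itln1.L and szl.L far below it.

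The largest difference in favour of the neural plate was that of zic1.S, a zinc finger gene that drives neural fate and is named in the series title. It read 10.38 and 10.61 on the plate arrays and 3.74 on the cap array, a 108-fold difference (log2 difference 6.75, SE 0.15, adjusted p = 1.95e-08). A dimmer zic1.S probe set read 9.13 and 9.25 against 3.10, which is within background, so its difference was at least 44.2-fold (adjusted p = 8.86e-07). Both plate arrays were thus far above the cap with either probe set. The homeobox gene crx.L, a member of the Otx group active in anterior neural ectoderm and later in photoreceptors, read 10.83 and 11.37 against 4.50 (97.3-fold, SE 0.23, adjusted p = 1.81e-07). The 3 crx probe sets all passed in the same direction. The hes7.1.L gene, which encodes a repressor of the Hes family, read 9.75 and 9.99 against 3.86 (64.2-fold, adjusted p = 5.21e-06). The gene tdgf1.3.L, a Cripto-family co-receptor for Nodal ligands, read 11.38 and 11.19 against 5.37 (60.2-fold, adjusted p = 1.55e-06). In these genes the plate arrays lay within 0.54 of each other and more than 5 units above the cap.

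Neural progenitor genes followed. Of 16 measured, 12 were higher in the plate, 0 lower and 4 not past the threshold, with a median log2 difference of 2.87, against 19% of the 6505 measured genes called higher, 15.8% called lower and a median of -0.01 over all genes. Each gene was represented in such counts by its brightest probe set. The shares over all genes, 19% higher and 15.8% lower, are also the measure for every list count below. The HMG-box gene sox11.S, which acts in neural progenitors and young neurons, read 11.68 and 11.78 against 6.36 (41.5-fold, adjusted p = 1.14e-07). The SoxB1 gene sox3.S read 10.57 and 10.75 against 5.68 (31.5-fold, adjusted p = 1.41e-06), and its relative sox2.L read 9.12 and 9.85 against 5.59 (14.8-fold, adjusted p = 1.01e-05). These Sox genes were well above background in the cap as well. The forkhead gene foxd4l1.1.S, which holds neural ectoderm in an immature state, read 8.35 and 8.43 against a cap level within background, 3.59, and was at least 25.4-fold higher (adjusted p = 1.81e-07). The other members past the threshold were zeb2.S, gmnn.L, zic2.S, sox15.L, lin28b.S, msi1.L and foxd4l1.2.L, with log2 differences from 4.30 down to 0.80. The adhesion genes cdh2.L and ncam1.S and the filament gene nes.S, which mark the later neural tube, differed by 0.29, 0.08 and -0.33 and did not pass.

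Several of the 15 genes most in excess in the plate are not known as neural regulators. The retinoic acid hydroxylase gene cyp26a1.S read 9.14 and 9.18 against 4.33 (28.4-fold, adjusted p = 9.64e-08), and sp5l.S, an Sp-family gene induced by Wnt signals, read 10.92 and 10.99 against 6.32 (24.8-fold, adjusted p = 4.54e-07). The purine salvage enzyme gene pnp.L read 9.26 and 9.89 against 3.93 (adjusted p = 4.11e-05), the cell-division-associated gene cdca7l.S was at least 25.6-fold higher and the pyruvate dehydrogenase kinase gene pdk4.S 24.2-fold higher. Of the 2 pdk4 probe sets, the other was that of the copy pdk4.L, which differed by 0.41 and did not pass. The elongation factor gene eef1a1.S was 38.2-fold higher, but with 1 of 2 probe sets. The cysteine dioxygenase gene cdo1.S was at least 35.8-fold higher with 1 of 3, and the zinc finger repressor gene zbtb33.S 48.4-fold with 1 of 3. These counts take .L and .S copies together, and cdo1.L differed by 0.28 and did not pass. The probe sets of eef1a1.S, zbtb33.S, pnp.L and cdo1.S also spread widely over the 3 stage 14 border arrays, with SDs of 1.24, 1.11, 0.81 and 0.81, while the plate arrays were 0.63 apart or less.

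**Figure D2:**
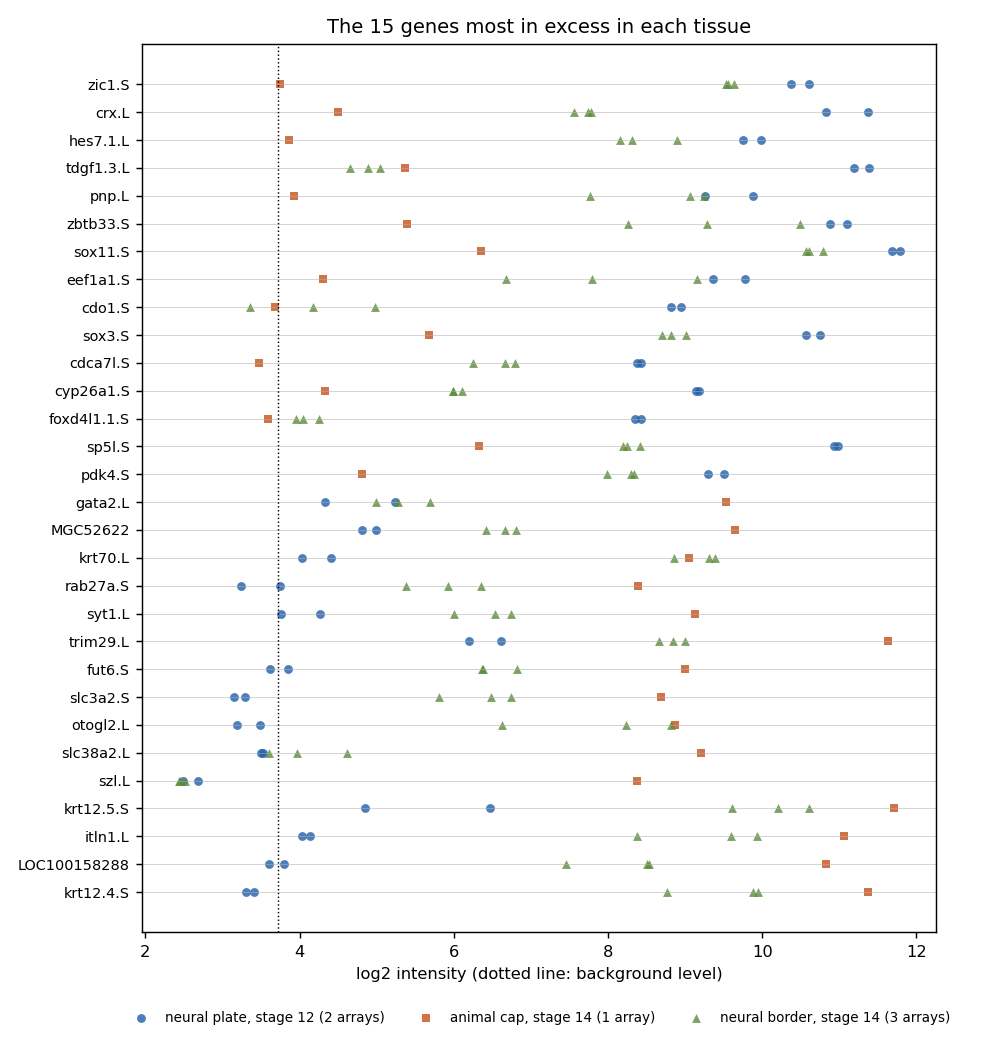
Log2 intensity (horizontal axis) of the 15 genes most in excess in the neural plate (upper rows) and the 15 most in excess in the animal cap (lower rows), with each array as a point and the background level of 3.72 as a dotted line. The 3 border arrays lie on the plate side of the midpoint for genes such as zic1.S and szl.L, and on the cap side for tdgf1.3.L and krt70.L.

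The stage 14 border separated the leading plate genes into kinds. For 8 of the 15 genes all 3 border arrays lay above the midpoint between plate and cap, and for 6 all 3 lay below it. In the border zic1.S was at 9.57 ± 0.05, sox11.S at 10.65 ± 0.12 and hes7.1.L at 8.45 ± 0.39 (SD, n = 3 each), all nearer to the plate. The border level of tdgf1.3.L was 4.86 ± 0.19, that of foxd4l1.1.S 4.08 ± 0.15 and that of lhx5.S 4.98 ± 0.23 (SD, n = 3 each), close to the cap. The plate exceeded the border by 6.42 for tdgf1.3.L (SE 0.22, adjusted p = 1.65e-07) and by 0.10 for sox2.L (SE 0.21, adjusted p = 0.763), in a comparison that called 41% of all probe sets.

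Some genes of the front and some of the back of the neural plate were higher than in the cap. Of 15 anterior neural and eye-field genes 6 were higher, 0 lower and 9 not past (median 0.36). Without plate replicate 1 the list had 8 higher members and a median of 1.01, and without replicate 2 it had 6 and 0.18. The LIM homeobox gene lhx5.S, a forebrain regulator, read 8.71 and 8.63 against 4.41 (19.2-fold, adjusted p = 4.15e-06), and the head gene otx1.L read 9.09 and 9.70 against 6.06 (10.1-fold, adjusted p = 4.37e-05). Both otx2.S and hesx1.L also passed, at 3.21 and 3.09, and so did tcf7l1.L at 1.52. The genes of the eye field and later forebrain did not pass: six3.L differed by 0.36, rax.S by 0.12, pax6.L by -0.06 and six6.L by -0.29, and rax.S and six6.L were within background on their dimmer side. The other copy of six3, six3.S, was called lower, at -0.47.

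Of 33 posterior neural, hindbrain and caudal genes 5 were higher, 3 lower and 25 not past, with a median of -0.04 that was 0.03 after quantile normalization. By comparison, 19% of all genes were called higher and 15.8% lower. Of the 33 genes 15 were within background in both tissues. Without dim probe sets 17 were left, with 4 higher and 2 lower. The Iroquois genes irx2.L and irx1.L, which act in neural precursors of the midbrain and hindbrain, were 18.3-fold and 12.7-fold higher (adjusted p = 8.84e-06 and 1.87e-05). The irx1.L probe set read 7.54 and 7.52 on the plate arrays and 3.86 in the cap. The caudal gene cdx1.S, a regulator of trunk and tail identity, read 6.55 and 7.29 in the plate against 2.78 in the cap and 2.87 ± 0.08 (SD, n = 3) in the border, and was at least 9.18-fold higher than in the cap (adjusted p = 3.97e-06). Thus cdx1.S was above background in the plate arrays and within it in the others named. Its relative cdx4.L and the hindbrain-boundary gene gbx2.2.L were also called, at 3.01 and 1.49. No Hox gene of the list was called higher. The Hox genes that passed, hoxa11.S, hoxb9 and hoxb5.S, were lower, by -0.87, -0.66 and -0.49. The plate arrays were within background for hoxb5.S, at 3.34 and 3.41 against 3.86 in the cap, so it was at least 1.10-fold lower. For hoxa11.S they were little above background, at 3.87 and 3.88 against 4.74. The call of hoxb9 was lost without plate replicate 1 (adjusted p = 0.0841) or 2 (0.0671) and that of hoxb5.S under those and other alternatives (up to 0.140).

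Genes of the neural border and neural crest did not favour either tissue as a list: of 16 measured, 2 were higher, 3 lower and 11 not past (median -0.02, and 0.03 after quantile normalization). Over all genes 19% were called higher and 15.8% lower. The crest regulator gene foxd3.S, which is also active in the organizer and the early embryo, read 6.29 and 5.75 against 3.47 and was at least 4.91-fold higher (adjusted p = 8.75e-04). Border regulators of the Msx homeobox family, which BMP signals induce, went the other way. The msx1.L level was 6.50 on both plate arrays and 8.13 in the cap (3.11-fold lower, adjusted p = 0.00216), and msx2.L read 4.93 and 4.43 against 6.10 (2.68-fold lower, adjusted p = 0.00250). The crest genes snai2.L, sox10.L and snai1.S differed by -0.24, 0.16 and 0.10, each within background on its dimmer side. The proliferation gene myc.S, also active in crest precursors, read 6.58 and 6.47 against 7.33 and was called lower (adjusted p = 0.0211), but not without plate replicate 1 or 2. Its copy myc.L differed by 0.43 and did not pass. Of the 5 myc probe sets, both copies together, 2 were called lower and 0 higher.

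The border gene pax3, named in the series title, was read differently by its probe sets. The pax3.S probe set read 4.85 and 6.77 on the plate arrays against 3.01 in the cap, at least 4.25-fold higher (log2 difference 2.80, SE 0.67, adjusted p = 0.0101), and with only the 3 arrays compared in the model its adjusted p was 0.0835. The plate arrays differed by more than 1 unit here, though both were above the cap. The 4 pax3.L probe sets differed by 0.75, 0.32, -0.08 and -1.94, and none passed (adjusted p from 0.0529 to 0.838). The last of them read 6.69 and 7.39 against 8.98 in the cap and passed as lower without border replicate 1 (0.0109) or 2 (0.0231), among other alternatives.

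Genes of differentiating neurons were called in both directions (2 of 16 higher, 3 lower, 11 not past, median -0.21), where 19% of all genes were called higher and 15.8% lower. Without plate replicate 1 the list had 3 higher and 1 lower members (median -0.12), and without replicate 2 it had 1 and 2 (median -0.33). The RNA-binding protein gene elavl3.L, an early neuronal marker, read 6.66 and 7.61 against 4.36 (6.80-fold higher, adjusted p = 5.75e-04). The beta-tubulin gene tubb2b.S was lower in the plate, with 3.25 and 3.84 against 5.98 in the cap and 7.43 ± 0.08 (SD, n = 3) in the border, a difference of at least 4.59-fold (adjusted p = 3.77e-05). These neuronal genes thus differed in opposite directions. The Notch ligand gene dll1.L, which marks nascent neurons, read 7.02 and 7.21 against 8.18 (adjusted p = 0.0145) and did not pass without plate replicate 1 (0.0664). The proneural gene neurog2.S read 3.99 and 4.47 against 3.37, at least 1.42-fold higher (adjusted p = 0.0308), and did not pass without plate replicate 2 (0.131). The neuronal RNA-binding protein gene elavl4.L was within background on all 3 arrays, at 2.77 and 2.83 against 3.28. Its call as lower (adjusted p = 0.0363) thus has no level above background behind it. That call was lost without plate replicate 1 or 2 and after quantile normalization (log2 difference -0.37), among other alternatives.

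The largest difference in favour of the animal cap was that of krt12.4.S, an epidermal keratin gene of the frog embryo. It read 3.31 and 3.41 on the plate arrays, within background, and 11.38 in the cap, at least a 201-fold difference (log2 difference -8.02, SE 0.43, adjusted p = 2.46e-06). Its homeolog krt12.4.L read 5.59 and 5.51 against 12.50 (124-fold lower, adjusted p = 1.41e-06). The gene itln1.L, a lectin secreted by goblet-type cells of the larval skin, read 4.03 and 4.14 against 11.06 (126-fold lower, adjusted p = 1.89e-05). Another keratin gene, krt12.5.S, read 4.85 and 6.47 against 11.71 (66.3-fold lower, adjusted p = 4.34e-05). The plate arrays were 1.62 apart for krt12.5.S, and both were more than 5 units below the cap.

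Of 41 keratin, desmosome and other epidermal structure genes 18 were lower in the plate, 3 higher and 20 not past, with a median of -0.16. Without plate replicate 1 or 2 the median was -0.31 or -0.33, without dim probe sets -0.76 and over the mean of each gene's probe sets -0.47. After the genes above, members with large differences in their brightest probe set were krt7.L (-4.50) and the cornified-envelope and desmosome genes ppl.L (-3.22), dsp.L (-3.06) and evpl.L (-2.59). The members called higher were the tight junction gene cldn6.2.L (1.42), the early-embryo cadherin gene cdh3.L (1.33) and the desmosomal plakophilin gene pkp3.L (1.31). The other copy of pkp3, pkp3.S, was called lower, at -2.44, and cdh3.S differed by 0.42 and did not pass. The epithelial cadherin gene cdh1.S differed by -0.47 and the epithelial adhesion gene epcam.L by 0.14, and neither passed. Of 13 members within background in both tissues, several were keratins such as krt61.L and krt62.L.

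Transcription factors of the epidermis and the wider non-neural ectoderm were mostly lower in the plate: 14 of 19 were lower, 2 higher and 3 not past (median -1.3). The zinc finger gene gata2.L, an early BMP-dependent ventral gene, read 4.33 and 5.24 against 9.53 (26.7-fold lower, adjusted p = 3.46e-05). The homeobox gene dlx3.S read 5.71 and 5.92 against 9.50 (12.9-fold lower, adjusted p = 8.65e-05), and the grainyhead gene grhl1.L, which drives keratin genes, read 6.32 and 6.43 against 9.97 (12.1-fold lower, adjusted p = 2.59e-05). In the border dlx3.S was at 6.73 ± 0.44 and grhl1.L at 7.39 ± 0.35 (SD, n = 3 each), between the 2 tissues. The genes grhl3.L, gata3.S, dlx2.L, foxi1.L, dlx6.S, dlx5.L and tp63.L were lower by 3.00 to 1.3 on the log2 scale. The members called higher were ets2.L (0.99), an Ets factor gene, and ventx2.2.L (1.29), whose call was lost without plate replicate 2 (adjusted p = 0.0575). The ectodermal AP-2 gene tfap2a.L, with -0.34, did not pass.

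Some genes of the specialised cells of the tadpole skin were also higher in the cap. Of 18 multiciliated cell genes 7 were lower in the plate, 0 higher and 11 not past (median -0.64). The cyclin gene ccno.L, which is needed to amplify centrioles, read 5.30 and 5.42 against 7.73 (5.16-fold lower, adjusted p = 2.67e-04), and the intraflagellar transport genes ift20.L and ift80.L were 4.52-fold and 3.58-fold lower. Of 11 ionocyte and proton pump genes 3 were lower, 1 higher and 7 not past (median -0.09), where 15.8% of all genes were called lower and 19% higher. Without dim probe sets 6 were left, with 1 lower, 1 higher and a median of 0.02. The ionocyte regulator gene foxi1.L read 5.36 and 4.52 against 7.45 (5.71-fold lower, adjusted p = 0.00771), and the proton pump subunit gene atp6v1b1.L read 3.15 and 3.00 against 5.03, at least 2.47-fold lower (adjusted p = 0.00657). The transcription factor gene ubp1.L read 3.40 and 3.59 against 4.97, at least 2.37-fold lower (adjusted p = 2.02e-04). The plate arrays were within background for atp6v1b1.L and ubp1.L. Another proton pump subunit gene, atp6v1a.L, was higher, with 6.61 and 6.52 against 5.90 (adjusted p = 0.00498), and its adjusted p was 0.0565 with only the 3 arrays compared in the model.

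Genes of the cement gland, the mucus-secreting organ below the mouth, and of the hatching gland were also examined. Of 7 such genes 3 were lower in the plate, 0 higher and 4 not past. Above background were 4 of the 7 in the cap and 4 and 5 on the plate arrays. The cement gland genes agr2.S and ag1.L were 25.9-fold and 6.89-fold lower in the plate, where agr2.S read 4.24 and 4.10 against 8.87 in the cap (adjusted p = 5.78e-06). The astacin metalloprotease gene astl2d.1.L, of the family of the hatching enzymes, read 5.23 and 5.25 against 8.30 (8.30-fold lower, adjusted p = 0.00116). The mean log2 level over the gland list was 4.34 and 4.40 on the plate arrays, 6.01 in the cap and 6.35 to 6.52 in the border, so the cap array and the border arrays stood above the plate arrays. The part of gland cells in the cap differences was not tested.

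Further genes among the 15 most in excess in the cap have various known roles. The small GTPase gene rab27a.S and the synaptotagmin gene syt1.L, both of secretory vesicle release, were at least 25.2-fold and 34.6-fold lower in the plate, and the fucosyltransferase gene fut6.S, which adds a sugar of mucins, was 38.5-fold lower. The amino acid transporter genes slc38a2.L and slc3a2.S were at least 44.6-fold and at least 31.2-fold lower. Of the 2 slc3a2 probe sets, the other was that of the copy slc3a2.L, which differed by -0.32 and did not pass. The otogelin-like gene otogl2.L was at least 35.3-fold lower with all 4 probe sets called lower, and krt70.L was 28.4-fold lower with all 5. Any .L and .S copies are counted together here. The gene trim29.L read 6.20 and 6.61 against 11.63 (37.5-fold lower, adjusted p = 1.41e-06). The genes LOC100158288 and MGC52622, for which the annotation gives no role, were at least 134-fold and 26.9-fold lower.

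The border again divided these genes. For 7 of the 15 genes most in excess in the cap all 3 border arrays lay above the midpoint, and for 5 all 3 lay below it. The border level of krt70.L, 9.19 ± 0.29, was near that of the cap, 9.05. Those of itln1.L (9.30 ± 0.82) and krt12.4.S (9.53 ± 0.66, SD, n = 3 each) lay between plate and cap, above the midpoint. In contrast slc38a2.L lay at 4.06 ± 0.51 and gata2.L at 5.32 ± 0.35 in the border (SD, n = 3 each), and the plate and the border did not differ past the threshold for either gene (adjusted p = 0.182 and 0.212). With the replicate number as a block in the limma fit, slc38a2.L was called lower in the plate than in the border (log2 difference -0.77, adjusted p = 0.0249).

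**Figure D3:**
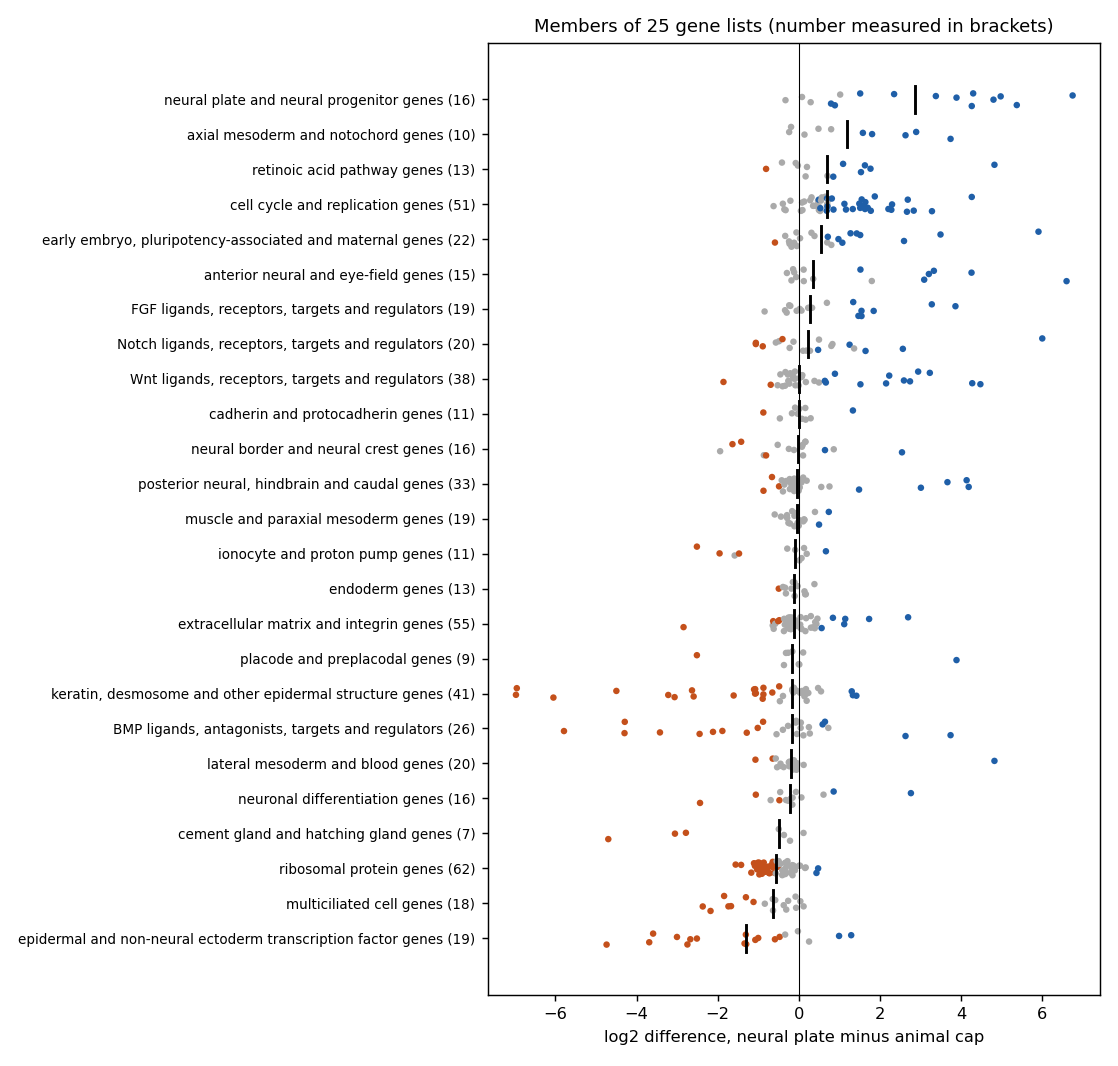
Log2 difference between neural plate and animal cap (horizontal axis) for the measured members of 25 gene lists, ordered by their median (black bar). Each point is a gene, blue where called higher in the plate, orange where called lower and grey where not past the threshold, and the list medians run from 2.87 for neural progenitor genes to -1.3 for epidermal transcription factor genes.

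BMP pathway genes were lower in the plate more often than higher, with 10 of 26 lower, 4 higher and 12 not past (median -0.17, and -0.26 or -0.32 without plate replicate 1 or 2). The largest difference was that of szl.L, sizzled, a secreted inhibitor of Tolloid proteases that BMP signals induce. It read 2.69 and 2.49 on the plate arrays and 8.38 in the cap, at least 25.2-fold lower (SE 0.14, adjusted p = 1.98e-08). In the border it was at 2.46 ± 0.04 (SD, n = 3), so the cap array alone of these 6 arrays was above background. The pseudoreceptor gene bambi.L, another gene induced by BMP, read 5.20 and 5.39 against 9.59 (19.7-fold lower, adjusted p = 3.46e-06). The ligand gene bmp7.1.L read 4.57 and 4.85 against 9.0 (19.6-fold lower, adjusted p = 2.43e-06).

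Other members ran the same way as these. The inhibitory Smad genes smad7.L and smad6.L were lower by 2.45 and 0.88 on the log2 scale, the Id genes id2.L and id4.S by 2.12 and 1.28, the BMP-binding protein gene twsg1.L by 1.88, and the Tolloid gene tll1.S, which was within background in the plate, by 3.42. The ligands differed among themselves. The bmp4.S level was 5.92 and 5.31 against 6.63 (log2 difference -1.01, adjusted p = 0.0256), bmp7.2.L read 11.41 and 11.09 against 11.31 and did not pass (adjusted p = 0.924), and admp.S, a ligand made by the organizer, read 7.76 and 8.25 against 4.26 (13.4-fold higher, adjusted p = 4.50e-04). The antagonist gene chrd.1.S, chordin, read 6.08 and 6.83 against 3.82 (6.20-fold higher, adjusted p = 1.41e-04). The antagonists nog.L and fst.L differed by 0.27 and 0.05 and did not pass. The remaining higher members, id3 and tll2.L, had log2 differences of 0.65 and 0.59, and the call of id3 was lost without plate replicate 2 (adjusted p = 0.118). With arrays centred on their medians 2 members rather than 4 were called higher, and likewise with the replicate number as a block.

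Of 38 Wnt pathway genes 12 were higher in the plate, 2 lower and 24 not past, with a median of 0.02 that was -0.03 after median centring. Among the receptors, fzd7.L read 10.19 and 10.35 against 5.79 (22.3-fold higher, adjusted p = 1.19e-05), and all 5 fzd7 probe sets passed. The co-receptor gene ror2.L read 7.25 and 8.07 against 4.43 (9.39-fold higher, adjusted p = 5.54e-05). The receptor gene fzd10.S went the other way, with 4.34 and 5.03 against 6.54 (3.62-fold lower, adjusted p = 0.00693), but its copy fzd10.L differed by 0.29 and did not pass. The receptor gene fzd8.S was also lower, with 5.72 and 5.99 against 6.55 (adjusted p = 0.00836). All 3 fzd8 probe sets were called lower, though with only the 3 arrays compared in the model the adjusted p of fzd8.S was 0.0756. Among target and feedback genes, a second sp5l.S probe set, the brightest of 3, was 19.4-fold higher, and axin2.S and dact1.L were higher by 2.59 and 2.74. The secreted antagonist genes sfrp2.S and sfrp1.L were higher by 2.94 and 0.89. The ligand genes wnt11b.L and wnt5b.S were higher by 2.23 and 0.64, while wnt8a.L, wnt3a.S and wnt8b.S did not pass, and wnt3a.S and wnt8b.S were within background on their dimmer side. Of the 38 genes 16 were within background in both tissues.

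Of 19 genes of the FGF list 7 were higher, 0 lower and 12 not past (median 0.27). The list includes fgfr1op2.S and spryd7.S, which share a name root with members but are no FGF pathway genes, and neither passed. The receptor gene fgfr1.L read 7.24 and 7.64 against 5.59 (3.60-fold higher, adjusted p = 3.73e-04). The immediate-early target gene egr1.L read 7.91 and 7.41 against 4.38 (9.72-fold higher, adjusted p = 0.00195), and the targets and feedback regulators etv4.L, spry2.L, etv1.S and dusp6.L were higher by 1.34 to 1.55. The inhibitor gene shisa1.1.L, which retains Wnt and FGF receptors in the cell, read 9.68 and 10.29 against 6.12 (14.6-fold higher, adjusted p = 6.00e-05). The members called were thus a receptor, targets and inhibitors. The ligand gene fgf8.L differed by 0.69 and did not pass, and fgf4.L and fgf3.L differed by -0.34 and -0.24.

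Genes of Notch signalling were called in both directions (5 of 20 higher, 4 lower, 11 not past, median 0.23). Over all genes 19% were called higher and 15.8% lower, so the list was not far from the general shares. Beside hes7.1.L, the ligand gene jag1.L read 6.63 and 6.80 against 4.15 (5.92-fold higher, adjusted p = 2.36e-05) and the receptor gene notch1.S read 6.87 and 7.10 against 5.34 (3.13-fold higher, adjusted p = 1.00e-04). The Hes-family genes hes5.3.L and hey1.S were lower, by 1.06 and 0.89 on the log2 scale, and hey1.S did not pass without plate replicate 1 (adjusted p = 0.0994). Without that replicate 1 member of the list was lower rather than 4, and the median was 0.14.

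Of 13 retinoic acid pathway genes 6 were higher, 1 lower and 6 not past (median 0.71). The higher members included enzymes that remove the signal and others that make it or carry it. Beside cyp26a1.S, the second hydroxylase gene cyp26c1.S read 5.55 and 7.09 against 4.55 (adjusted p = 0.0256), and it did not pass without plate replicate 2 (0.0682). The retinaldehyde reductase gene dhrs3.L read 6.10 and 6.14 against 4.48 (3.10-fold higher, adjusted p = 0.0132). The synthesis gene aldh1a2.L, the binding protein gene crabp2.L and the receptor gene rarg.S were higher by 0.85, 1.53 and 1.09. The receptor gene rxra.L was at least 1.65-fold lower, with plate levels within background.

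**Figure D4:**
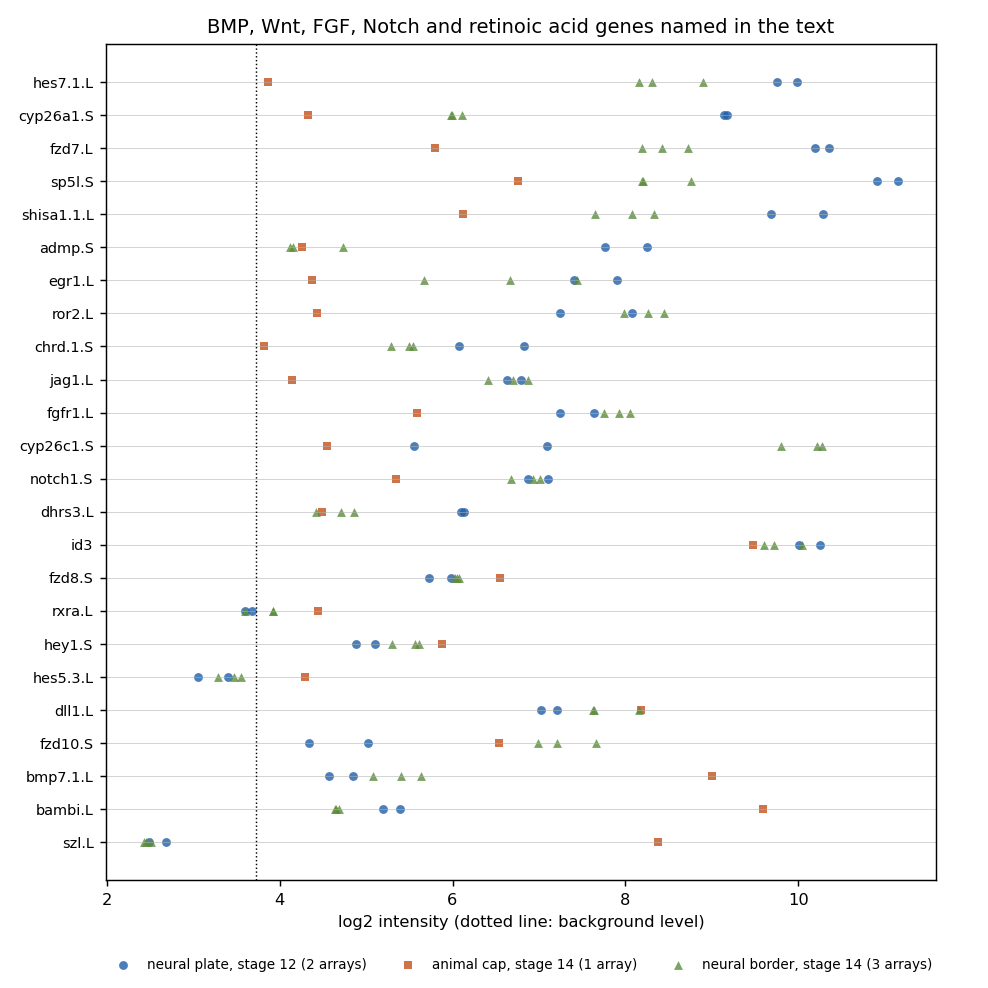
Log2 intensity (horizontal axis) on each neural plate, animal cap and stage 14 border array for the BMP, Wnt, FGF, Notch and retinoic acid genes chosen by the naming rule, ordered by the difference between plate and cap, with the background level of 3.72 as a dotted line. The cap point stands to the right of both plate points for szl.L, bambi.L and bmp7.1.L and to the left of them for fzd7.L, admp.S and chrd.1.S.

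Cell cycle and replication genes were higher in the plate in 27 of 51 cases, lower in 0 and not past in 24 (median 0.70). These counts use the brightest probe set of each gene. The list gene aurka was thus not counted as lower, but its copy aurka.L was called lower, at -1.01. The copy aurka.S differed by 0.32 and did not pass. The list includes cdkn2aip.S, called higher at 0.70, which shares a name root with cell cycle inhibitors but encodes a protein that binds one of their products. The replication licensing inhibitor gene gmnn.L, geminin, which also acts in neural commitment, read 10.41 and 10.15 against 6.01 (19.2-fold higher, adjusted p = 2.56e-07). The cyclin genes ccne2.L and ccnb1.S read 7.78 and 6.71 against 3.96 and 8.26 and 7.08 against 4.84 (9.74-fold and 7.14-fold higher). Both cyclins were more than 1 unit higher on plate replicate 1 than on replicate 2. The S-phase genes cdc6.L, mcm4.L, mcm3.L, mcm5.L, cdc45.L, cdt1.L and pcna.L were higher by 2.69 to 1.33, whereas cdk1.L, mad2l1.S and ccnd2.L differed by -0.21, -0.32 and -0.62 and did not pass. The mean log2 level over the list was 7.78 and 7.70 on the plate arrays, 6.73 in the cap and 7.12 to 7.26 in the border.

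Genes of the early embryo were higher in 9 of 22 cases, lower in 1 and not past in 12 (median 0.54). Without plate replicate 1 the list had 6 higher members and a median of 0.26, and without replicate 2 it had 11 and 0.75. After tdgf1.3.L the largest difference was that of pou5f3.2.L, a POU factor gene that keeps ectoderm cells uncommitted, with 11.83 and 11.08 against 7.96 (11.3-fold higher, adjusted p = 1.95e-04) and 5.43 ± 0.53 in the border (SD, n = 3). Here the cap stood between the plate and the border. The zinc finger gene sall1.L was 6.04-fold higher (adjusted p = 1.99e-04), and ccna1.S, vegt.S, pou5f3.3.L, zar1.S, dppa2.L and mos.L, several of which are deposited in the egg, were higher by 0.72 to 1.52. The Nodal ligand genes nodal.L, nodal1.L, nodal2.L and nodal6.L differed by 0.03 to -0.24 and did not pass. The member called lower, klf17.L (-0.59), did not pass without plate replicate 2 (adjusted p = 0.135).

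Ribosomal protein genes were lower in the plate in 32 of 62 cases, higher in 2 and not past in 28 (median -0.56). The differences were small next to those of keratins. Over the brightest probe set of each gene the largest were those of rpl8.S, with 9.18 and 9.46 against 10.88 (2.94-fold lower, adjusted p = 1.41e-04), rps6.L (2.68-fold) and rpl29.L (2.25-fold). The mean log2 level over the list was 9.53 and 9.67 in the plate, 10.16 in the cap and 10.54 to 10.61 in the border. The genes called higher, rps10.L and rps12.S, were higher by 0.48 and 0.44 and neither passed without plate replicate 1 (adjusted p = 0.0690 and 0.0790). For both rps10 and rps12 the other of the gene's 2 probe sets was called lower, with rps12.L at -1.22. The list includes rpl3l.L, a muscle form within background. The beta actin controls of the array, whose 3' and 5' probe sets reflect RNA integrity and labelling, had a 3' minus 5' difference of -2.55 and -2.46 on the plate arrays, -3.14 in the cap and -3.08 to -2.75 in the border, and for Gapd the values were 2.17 and 2.44, 1.85, and 2.08 to 2.55. The part of RNA quality in these differences was not tested.

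Markers of the other germ layers were used to look for other tissues in the dissected samples. Of 10 axial mesoderm and notochord genes 5 were higher in the plate, 0 lower and 5 not past (median 1.19). The brachyury gene tbxt.S, expressed in the forming notochord and around the blastopore, read 6.30 and 5.56 against 3.03 in the cap and 3.19 ± 0.21 (SD, n = 3) in the border, and was at least 4.61-fold higher than in the cap (adjusted p = 7.19e-05). The other called members were admp.S and chrd.1.S, given above, and foxa4.S and not.S, at 1.81 and 1.58. The mean log2 level over the list was 4.85 and 4.80 on the plate arrays, 3.46 in the cap and 3.77 to 3.78 in the border, and 5 and 6 of the 10 genes were above background in the plate against 3 in the cap. The notochord genes shh.L and col2a1.S were within background on their dimmer side and did not pass. The part of axial mesoderm cells in the plate values, those of admp.S and chrd.1.S included, was not tested.

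Muscle and paraxial mesoderm genes were mostly within background, with 14 of 19 below it in both tissues, 2 called higher and 0 lower. Those were myh10.S (0.74) and the muscle regulator gene myf5.L (0.50). The list includes myh10.S by its name root, but it is a nonmuscle myosin gene. The call of myf5.L was lost under several alternatives, among them median centring and leaving out plate replicate 1, with log2 differences of 0.46 and 0.39. The muscle regulator genes myod1.L and myf6.L and the somite genes tbx6.L and msgn1.L did not pass. Of 13 endoderm genes 0 were higher and 1, gata5.S (-0.49), was lower. It did not pass without plate replicate 1 or 2, nor after quantile normalization (log2 difference -0.40), among other alternatives. Of 20 lateral mesoderm and blood genes 1 was higher and 2 lower. The higher one is cyp26a1.S, which is also a retinoic acid gene, and the lower ones, hbg1.L and nkx2-5.S, read within background in the plate and 4.05 and 4.22 in the cap, and did not pass without plate replicate 1 (adjusted p = 0.0540 and 0.0590).

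Adhesion and matrix genes were mostly not past the threshold. Of 11 cadherin and protocadherin genes, 8 of them within background in both tissues, 1 was higher, cdh3.L, with 10.47 and 10.88 against 9.34 (2.52-fold, adjusted p = 0.00446). The 1 lower gene, pcdh1.L, read 6.79 and 6.11 against 7.33. The call of pcdh1.L was lost under several alternatives, among them the replicate number as a block and leaving out plate replicate 2 (log2 difference -0.53). Of 55 extracellular matrix and integrin genes 6 were higher, 4 lower and 45 not past (median -0.12). Both shares were below those over all genes, 19% higher and 15.8% lower, but 28 of the 55 were within background in both tissues. Without dim probe sets 26 were left, with 6 higher and 1 lower. The list includes itgb1bp2.L, which is no matrix gene and did not pass. The hyaluronan synthase gene has2.S read 6.38 and 6.49 against 3.74 (6.48-fold higher, adjusted p = 0.00106), and the fibronectin gene fn1.S read 10.27 and 10.04 against 8.42 (3.33-fold higher, adjusted p = 2.87e-04), with all 4 fn1 probe sets called higher. The matrix metalloproteinase gene mmp3.L was within background in the plate, at 2.80 and 2.83, and read 5.66 in the cap, at least 3.83-fold lower (adjusted p = 3.15e-04). The basement membrane gene nid2.L read 7.47 and 7.30 against 6.24 (2.21-fold higher, adjusted p = 0.00722). The collagen gene col1a2.L, with 3.42 and 3.55 against 4.11, and the metalloproteinase gene mmp13l.L, with 3.40 and 3.54 against 3.98, were at least 1.31-fold and 1.19-fold lower (adjusted p = 0.0102 and 0.0388). The call of col1a2.L was lost with only the 3 arrays compared (0.0683). That of mmp13l.L was lost without plate replicate 1 or 2 and after quantile normalization (log2 difference -0.44), among other alternatives. Of 9 placode genes 1 was higher, sox2.L, and 1 lower, foxi1.L.

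Gene copies and repeated probe sets were then compared with each other. Of 2012 genes with more than 1 probe set, 338 had all of them called in the same direction, 677 had some called in one direction, 960 had none called and 37 had calls in both directions. For 1017 of these genes an .L and an .S copy were both measured. Both copies were called in the same direction for 191 genes, 96 higher and 95 lower in the plate, 1 copy was called for 355 and neither for 456. In 15 genes, which are among the 37 above, the copies were called in opposite directions. The median absolute difference between the copies' log2 differences was 0.44. Which probe sets also bind the other copy was not tested.

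Among the opposed pairs, 6 had the largest differences on their smaller side. The plakophilin gene pkp3 was higher in the plate with its .L copy, at 7.47 and 7.30 against 6.08, and at least 5.01-fold lower with its .S copy, at 3.49 and 3.72 against 6.05 (adjusted p = 9.15e-04 and 4.11e-05). The chromatin gene dido1 differed by 1.67 for .L and -1.82 for .S (adjusted p = 0.00125 and 0.00300), and the lipid droplet gene plin3 by 1.09 and -2.17 (adjusted p = 0.00583 and 7.89e-04). The transport vesicle coat gene sec31b, the respiratory chain assembly gene uqcc2 and the phosphatase gene ptpn9l were higher with .S, by 1.50, 1.23 and 1.15, and lower with .L, by 1.13, 1.02 and 1.45 on the log2 scale.

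**Figure D5:**
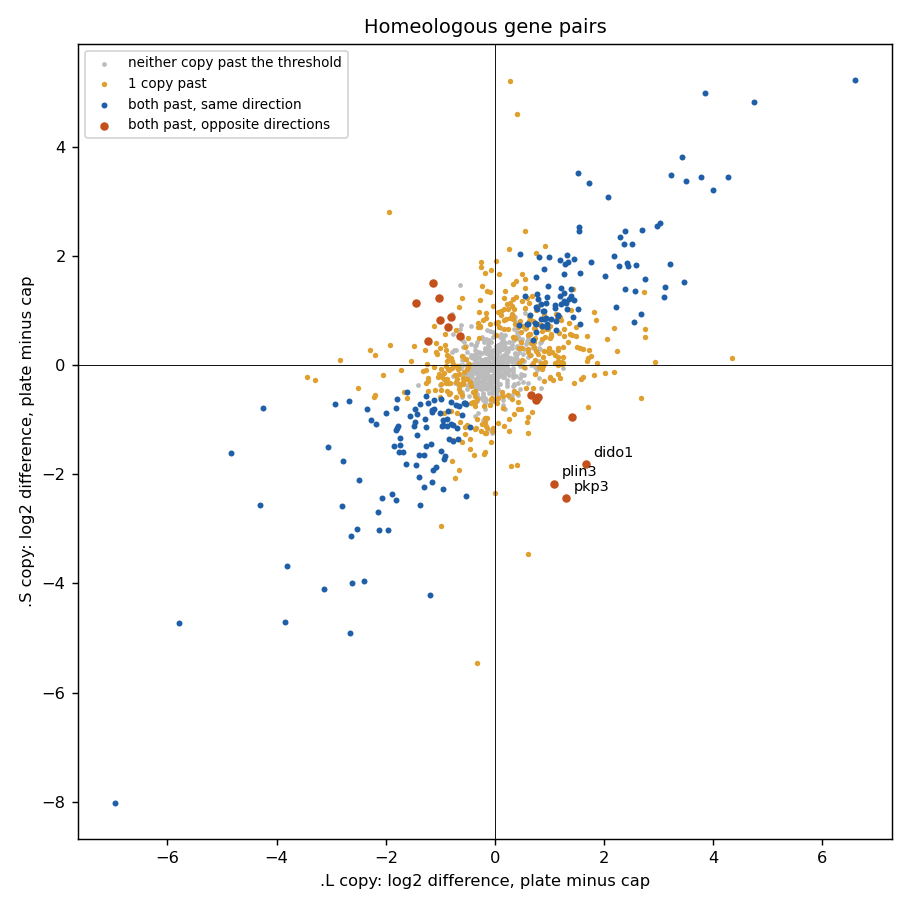
Log2 difference between neural plate and animal cap for the .L copy (horizontal axis) and the .S copy (vertical axis) of 1017 genes with both copies measured, coloured by the calls. Most of the pairs with 2 calls lie in the lower left and upper right of the plot, and the 15 pairs called in opposite directions, among them pkp3, dido1 and plin3, lie in the upper left and lower right.

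The plate arrays were alike for most genes but not for all. Of the 89 probe sets that differed 2-fold or more between them, 43 were higher on replicate 2 and 46 on replicate 1. The forebrain gene fezf2.L read 4.22 on replicate 1 and 6.68 on replicate 2, against 3.65 in the cap, and did not pass (adjusted p = 0.0842), and pax3.S and cyp26c1.S were also higher on replicate 2. The cyclin gene ccna1.L was higher on replicate 1, with 8.10 against 6.79.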

How the data were processed

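Transcript levels were measured on Affymetrix Xenopus laevis arrays, and the deposited log2 values, 1 per probe set and array with 0 missing, were used without further normalization. The submitters' processing notes name R 2.14.2, and the background correction, summary and normalization behind the log2 values are not given in the sources used here. The values ran from 2.13 to 13.56, array medians from 4.94 to 5.04, and their log2 scale is read from that range. Any centring or filtering of genes before deposit is unknown.

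Probe sets were named through the platform annotation and the RefSeq gene table (9304 with 1 symbol, 195 with several, 5992 unnamed here; 9227 matched RefSeq and 77 kept the platform's symbol). Of the 4848 called probe sets 3164 had 1 symbol. No genome or sequence table was used.

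Group means of all 11 arrays were fitted with limma 3.58.1 in R 4.3.3 (6 residual degrees of freedom, prior SD 0.16), which pools the spread, and contrasts were tested with eBayes, two-sided, with Benjamini-Hochberg adjustment over 15491 probe sets. Control probe sets were left out. Folds against a level within background were computed against 3.72, the 95th percentile of 17 tag controls. The number of arrays limits the precision.

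The text names the 15 genes most in excess in each tissue, up to 3 called members in each direction of each of 25 lists (2 where none was called), zic1, pax3 and 6 opposed homeolog pairs. Other list members were added to show a list's range. The comparison and the lists were chosen with earlier results of these data known. The alternatives tried were quantile normalization, median centring, no dim probe sets, only the 3 arrays compared, trend and robust settings, array weights, the replicate number as a block and leaving out each replicate, except the lone cap array. The fit was tested on simulated data in which all arrays of a probe set, the cap included, were given the same spread. That test cannot show whether the lone cap array varies as the other groups do.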

Additional observations from a re-analysis of the deposited data

How the results depend on the processing

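Over the alternatives the probe sets called higher in the neural plate numbered 1916 to 2873 and those called lower 1700 to 2524, against 2584 and 2264, and 2543 to 2880 were called at 2-fold or more. The lowest counts came from fitting only the 3 arrays compared (1916 and 1708) and from leaving out plate replicate 1 (1933 and 1700). Without plate replicate 2 there were 2360 and 1940. The share of calls that were higher stayed between 50.1% and 55.6%. With the replicate number as a block, 2314 were higher and 1964 lower. The compared tissues share only the number 1. Between the other groups, deviations of same-numbered arrays from their group means correlated at -0.10 to 0.26. The lone cap array has no such deviation, so these values cannot decide whether the numbers pair the samples. Of 127 named probe sets none changed direction with a call. At most 18 lost their call under 1 alternative (only the 3 arrays compared), and 13 each without plate replicate 1 or 2. The 2-fold rule and the list counts rest on 1 cap array, which could not be left out, and levels within background limit the folds given as bounds. Dropping dim probe sets, those with a mean over all 11 arrays within background, left 10963 for testing. Of the axial mesoderm genes 3 of 5 were then called higher, rather than 5 of 10. Of the ionocyte genes 1 of 6 was then called lower, rather than 3 of 11. Lists run without each plate replicate and with the block were added after seeing the data. Without plate replicate 2, the epidermal transcription factor list had 10 rather than 14 lower members, and without replicate 1 the ribosomal list had 25 rather than 32.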
